A study of Mus musculus with 105 samples.

Results

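The messenger RNA of mouse embryonic fibroblasts was compared between contact-inhibited cultures and dividing cultures. The comparison was defined by the sample names of the mRNA table, in which 2 libraries are contact-inhibited (CIMEF) and 2 are dividing (DMEF), and it took in all genes. These 4 libraries are 4 of the 6 mRNA libraries and 4 of the 105 samples of a study that otherwise followed the labelling of microRNAs over time. The other 2 mRNA libraries come from embryonic stem cells. They entered the filter on low counts, the scaling and the estimate of the spread, and so shaped the set of genes tested. All fibroblasts were C57BL/6J cells of embryonic origin at passages 5 to 15. They were grown in DMEM with 10% fetal bovine serum and passaged every 2 to 3 days, and the contact-inhibited cultures were held in that state for 5 days. Messenger RNA was enriched on poly(A) beads from 10 µg of total RNA, and a directional kit gave reads of 40 nt from a single end. The series adds 5-ethynyluridine, a labelled RNA precursor, to its cultures, but the labels give the mRNA samples no labelling time, so whether these cultures received it is not given in the sources used here. The same holds for whether both states, or both replicates of a state, came from the same embryos. P-values therefore measure only the spread between these libraries, which may be technical.

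Fibroblasts in culture divide until they touch their neighbours on all sides, and then leave the cell cycle reversibly, a state called contact inhibition or quiescence. Cell contact and the loss of tension on the actin cytoskeleton keep the coactivators YAP and MRTF out of the nucleus, CDK inhibitors hold the retinoblastoma family proteins active, and E2F target genes are switched off. Quiescent fibroblasts remain metabolically active and are known for secreting and remodelling extracellular matrix. In a dividing culture the same cells make ribosomes, nucleotides and proteins for growth.

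Levels are given as CPM, the count divided by the library total after TMM scaling and multiplied by 1000000. CPM does not correct for transcript length, so sums over genes and ranks by CPM gained or lost weigh long transcripts more, and no other comparison of levels between genes was made. Gene positions are those of RefSeq for GRCm38.p6, the build of the files. Differences are log2 of contact-inhibited over dividing, so positive values mean a higher level in the contact-inhibited state. A gene passed when the adjusted p of edgeR's quasi-likelihood test was under 0.05, and higher and lower are used of such genes only. The gene lists were chosen with earlier results of these data known, so the counts below describe them and do not test them.

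Of the 18094 genes tested, 3528 (19.5%) were higher and 3812 (21.1%) lower in contact-inhibited fibroblasts, and 9168 had an unadjusted p under 0.05. Over 4-fold differences were reached by 1245 of the higher and 766 of the lower genes. Both contact-inhibited libraries lay above both dividing libraries for 5998 genes and below them for 6559. The genes tested included some, such as Hoxb1, with 0 CPM in all 4 fibroblast libraries. With the fibroblast libraries alone, 15786 genes were tested. List counts below are to be read beside the shares over all genes, 19.5% higher and 21.1% lower. The library totals ran from 23030907 to 34093791 counts. The split of calls depended on the scaling: 48.1% of calls were higher with TMM and 61.3% with library totals alone, which shifted the median log2 difference over all genes from 0 to 0.16. In the fits that leave out a library, its line adds nothing to the estimate of the spread. Without a contact-inhibited library the more variable fibroblast pair drops out of that estimate, and without a dividing library it stays in. Counts and adjusted p-values of those fits thus also depend on which pairs gave the spread. Leaving out libraries changed the numbers: the shares higher and lower were 20.3% and 19.3% without CIMEF replicate 1, 22.5% and 20.6% without CIMEF replicate 2, 13.8% and 14.8% without DMEF replicate 1, and 8.27% and 10.3% without DMEF replicate 2. In the last case 1605 genes were higher and 2000 lower, and 47.8% of the calls tested there remained, none with the opposite sign.

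**Figure D1:**
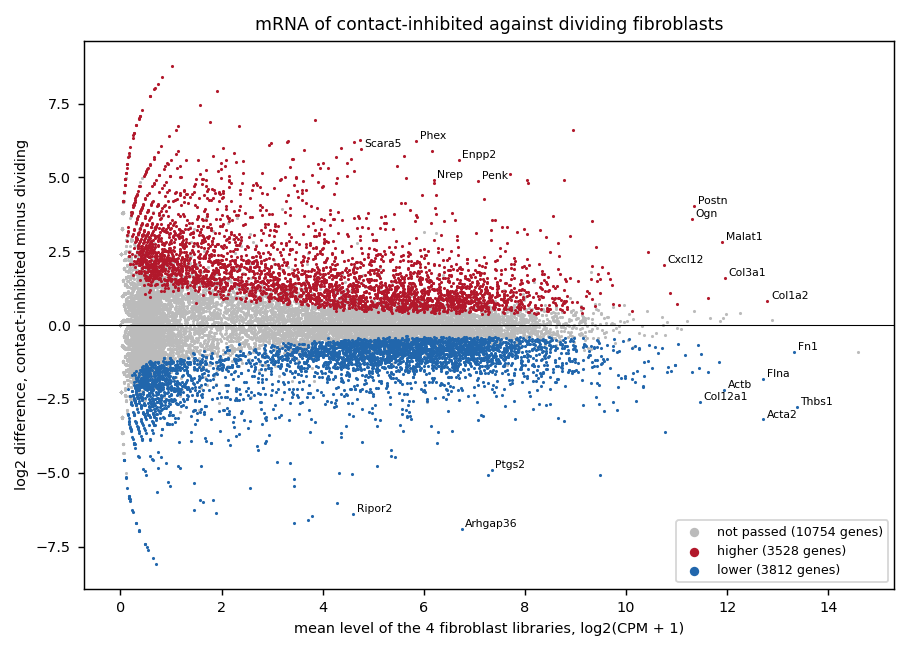
Log2 difference between contact-inhibited and dividing fibroblasts (y axis) against the mean level of the 4 libraries, log2(CPM + 1) (x axis), 1 point per gene; 3528 genes passed as higher and 3812 as lower, and named points are some of the genes with the widest gaps between states or the largest CPM differences. Higher and lower genes were spread over the whole range of levels.

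The contact-inhibited libraries differed from each other more than the dividing ones did. Over 9152 genes with a mean of at least 10 CPM, the log2 difference between replicates had an SD of 0.55 in contact-inhibited and 0.35 in dividing fibroblasts. Between the contact-inhibited libraries 78 genes were over 4-fold higher in replicate 1 and 28 in replicate 2, against 1 and 0 between the dividing libraries. The genes farthest apart were high in replicate 1 of the contact-inhibited cells. Among them were Meg3 and Rian, imprinted noncoding RNAs of the same cluster, at 170.2 and 2.70 CPM and 109 and 2.70 CPM in replicates 1 and 2, with 23.98 and 18.2 CPM and 50.2 and 38.7 CPM in the dividing libraries. Igf1, a growth factor, stood at 216 and 10.7 CPM against 16.01 and 9.66 CPM and Igfbp5, which binds it, at 339 and 17.2 CPM against 305 and 249.9 CPM. Dkk3, a secreted Wnt-pathway protein, stood at 114 and 2.61 CPM against 38.1 and 35.4 CPM. The membrane protein gene Itm2a stood at 261 and 7.49 CPM against 14.7 and 15.98 CPM, the protocadherin gene Pcdh7 at 24.7 and 0.348 CPM against 24.4 and 19.9 CPM and AW551984 at 26.4 and 0.392 CPM against 29.98 and 31.5 CPM. None of these 8 genes passed, although their mean levels differed between the states by up to 8.85-fold (Igf1).

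**Figure D2:**
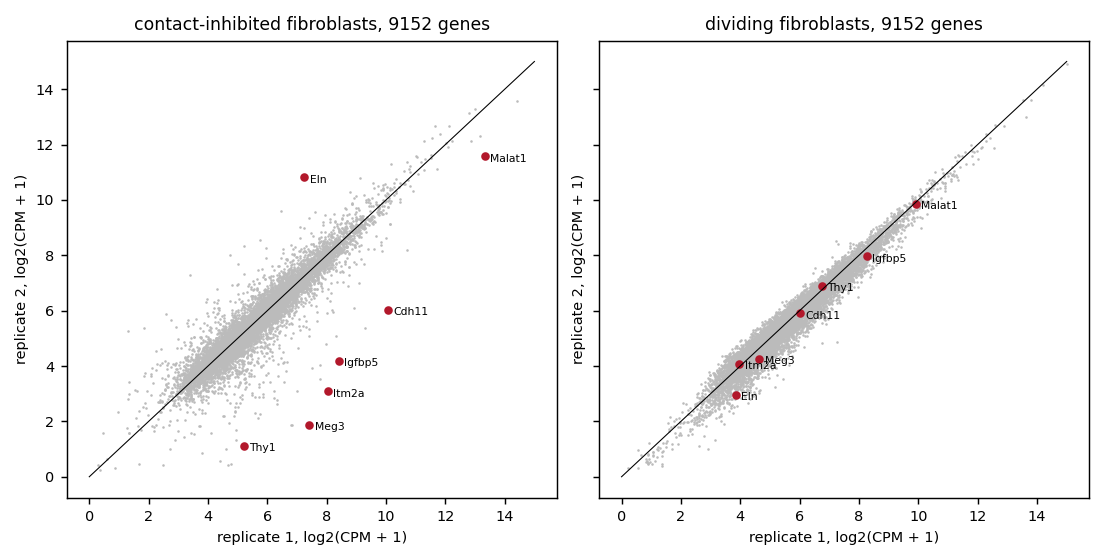
Level in replicate 2 against replicate 1, log2(CPM + 1), for the contact-inhibited (left) and dividing (right) libraries, 1 point per gene with a mean of at least 10 CPM. Points off the diagonal are more frequent in the contact-inhibited libraries, where 78 and 28 genes differed over 4-fold.

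The libraries carried the markers of fibroblasts. The summed level of 12 fibroblast markers was 35604 and 33201 CPM in contact-inhibited and 35446 and 31708 CPM in dividing fibroblasts, so the states overlapped on the sum. Of these 12 genes 7 were higher, among them Ddr2, a collagen receptor (1404 and 1046 CPM against 512 and 312 CPM), and 2 lower. Counts for fibroblast markers were 7 higher and 4 lower without CIMEF replicate 2, 5 higher and 1 lower without DMEF replicate 1 and 3 higher and 0 lower without DMEF replicate 2. Summed markers of leukocytes reached at most 4.48 CPM, those of endothelium at most 30.1 CPM and those of epithelium at most 33.3 CPM in any library. Pluripotency genes lay at 1.48% or less of their stem cell level in every fibroblast library. Other lists did differ between the states on their sums. The neural and glial list (1 higher and 3 lower of 7 tested, 1 and 5 of 8 without CIMEF replicate 1, 2 and 3 of 9 without CIMEF replicate 2) summed to 40.00 and 38.2 CPM against 268 and 243 CPM, mostly through Nes (24.9 and 26.9 CPM against 254 and 227 CPM), which encodes the intermediate filament nestin. The cartilage list (1 higher and 3 lower of 5 tested, 0 and 3 without DMEF replicate 1) summed to 60.04 and 60.2 CPM against 331 and 266 CPM, mostly through Col10a1 (32.3 and 28.03 CPM against 291 and 224 CPM). The skeletal muscle list (0 higher and 1 lower of 5 tested, 0 and 2 without CIMEF replicate 1) summed to 3.68 and 3.44 CPM against 71.01 and 58.6 CPM, mostly through Acta1, an actin gene described below. Smaller sums that did not overlap were those of adipocyte markers (12.4 and 13.9 CPM against 32.5 and 35.7 CPM), pericyte markers (195 and 195 CPM against 306 and 258 CPM) and bone markers (158 and 236 CPM against 152 and 125 CPM). The higher bone sum was carried by Phex (88.8 and 136 CPM against 1.64 and 1.32 CPM), while the bone marker Runx2 was lower (log2 difference -0.76). The part of these markers in the other results was not tested.

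Gene length moved with the difference between states and with the difference between the dividing replicates. The 8925 protein-coding genes with at least 10 CPM were split into 4 equal classes by the span of the gene in RefSeq (GRCm38.p6). The median log2 difference was -0.37 in the class of shortest genes, then -0.20 and 0.01, and 0.18 in the class of longest genes. The share of genes higher was 12.1%, 16.3%, 21.2% and 31.0% in the same order, and the share lower 39.2%, 32.2%, 25.2% and 18.2%. Between DMEF replicates 1 and 2 the medians were -0.11, -0.05, 0.06 and 0.17, and between CIMEF replicates 1 and 2 they were -0.03, 0.01, 0.02 and 0.02. As a description over these genes, which share their libraries, span correlated with the difference between states at a Spearman rho of 0.25 and with the difference between the dividing replicates at 0.30. The part of gene length in the results below was not tested.

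The genes that separated the states best were ranked by the gap between the nearest contact-inhibited and dividing library on log2(CPM + 1), 12 in each direction. The higher genes included secreted and surface proteins. Enpp2, the secreted enzyme autotaxin that makes lysophosphatidic acid, stood at 199.9 and 201 CPM in the contact-inhibited libraries and 4.76 and 3.51 CPM in the dividing libraries (ENSMUSG00000022425, chr15:54838901-54952789; log2 difference 5.60, SE 0.20, adjusted p = 1.7e-04). Penk, the precursor of enkephalin peptides, stood at 196 and 320.5 CPM against 8.41 and 9.08 CPM (log2 difference 4.88, SE 0.29, adjusted p = 3.3e-04). Agtr2, an angiotensin receptor, stood at 62.01 and 31.3 CPM against 0.801 and 0.483 CPM. The ratio of the mean levels was 48.4 for Enpp2, 29.5 for Penk and 72.7 for Agtr2. That the states did not overlap follows from the ranking. Scara5, a ferritin receptor, stood at 53.98 and 48.01 CPM against 0.841 and 0.773 CPM. Phex, a membrane endopeptidase known from bone mineralization, stood at 88.8 and 136 CPM against 1.64 and 1.32 CPM (log2 difference 6.25, SE 0.31, adjusted p = 2.5e-04). Islr, a leucine-rich repeat protein of mesenchymal cells, stood at 125 and 62.3 CPM against 2.28 and 1.26 CPM. The rest of the 12 were Nrep, Kctd12, Hmcn1 (a matrix protein, hemicentin), Atp1b2 (a sodium pump subunit), Cacnb4 (a calcium channel subunit) and Sned1. Among all 12, Hmcn1 and Cacnb4 moved by over 1.5-fold when a library was left out, to log2 differences of 5.99 and 6.06 without DMEF replicate 1, from 5.13 and 5.40.

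In the other direction, Plaur, the receptor of urokinase, stood at 4.57 and 2.48 CPM in the contact-inhibited libraries and 71.8 and 81.1 CPM in the dividing libraries (ENSMUSG00000046223, chr7:24460937-24475970; log2 difference -4.43, SE 0.30, adjusted p = 4.3e-04). Ptgs2, the inducible cyclooxygenase, stood at 12.05 and 8.92 CPM against 367 and 256 CPM and Inhbb, an activin subunit, at 2.53 and 4.79 CPM against 72.8 and 89.4 CPM. Bmp8b, a BMP ligand, stood at 0.223 and 0.348 CPM against 25.02 and 25.4 CPM. By the ranking, all 4 were lower in both contact-inhibited libraries than in either dividing one. Anxa8, an annexin, stood at 10.6 and 7.23 CPM against 254 and 344 CPM. Ripor2 stood at 0.520 and 0.566 CPM against 42.4 and 49.8 CPM. Adcyap1r1, a neuropeptide receptor, stood at 0.297 and 0.174 CPM against 26.7 and 20.8 CPM and Arhgap36 at 1.52 and 2.00 CPM against 196 and 227 CPM. Acta1, the actin of skeletal muscle, stood at 2.12 and 2.52 CPM against 69.3 and 57.1 CPM (log2 difference -4.77, SE 0.23, adjusted p = 2.5e-04). Also among these 12 were Alkal1, a ligand of the receptor ALK, and Slc5a7, a choline transporter. Alkal1 had a log2 difference of -6.03, or -7.03 without CIMEF replicate 1. Slc5a7 had -5.06, or -6.75 and -4.32 without CIMEF replicate 1 and 2.

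**Figure D3:**
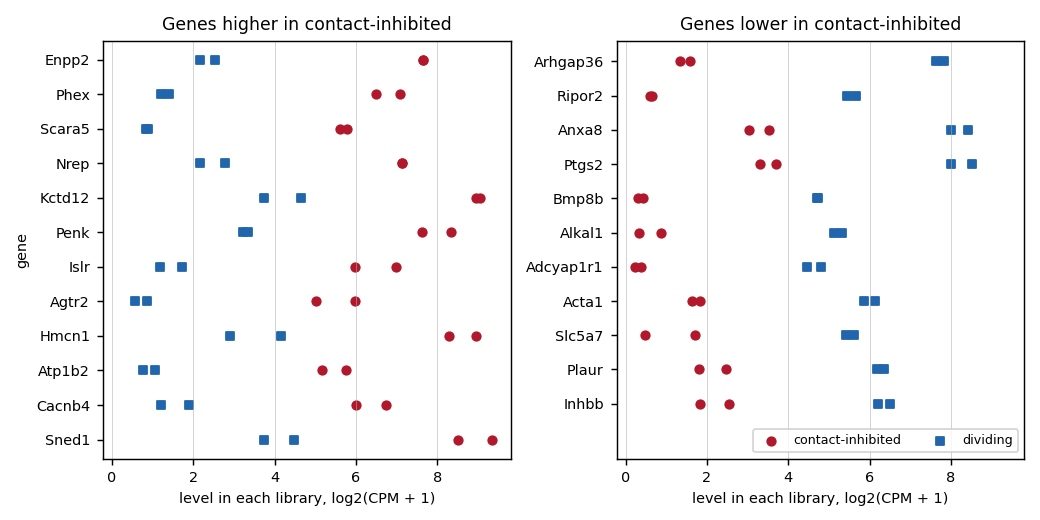
Level in each of the 4 libraries, log2(CPM + 1), for 12 higher and 11 lower genes with the widest gaps between states; circles are contact-inhibited and squares dividing libraries. By the choice of genes, both libraries of a state lie on the same side of the gap, for example Plaur at 4.57 and 2.48 CPM against 71.8 and 81.1 CPM.

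Measured by the CPM gained or lost, the transcripts that moved most were largely those of matrix and cytoskeletal proteins. Postn, the matricellular protein periostin, stood at 3229 and 6553 CPM against 344 and 255 CPM and Ogn, a small proteoglycan, at 4801 and 4517 CPM against 484 and 283 CPM. Cxcl12, a chemokine, stood at 3335 and 2225 CPM against 712 and 636 CPM. The fibrillar collagen genes Col3a1 and Col1a2 and the nuclear noncoding RNA Malat1 also gained. Col3a1 stood at 7435 and 4446 CPM against 2176 and 1746 CPM, Col1a2 at 8201 and 9939.5 CPM against 5448 and 4829.6 CPM and Malat1 at 10298 and 3065 CPM against 967 and 925 CPM. Of these 6, Malat1, Col3a1 and Col1a2 did not pass without DMEF replicate 2 (adjusted p = 0.0722, 0.0508 and 0.0610). Malat1 did not pass without DMEF replicate 1 either (adjusted p = 0.0556), and its log2 difference of 2.82 became 1.76 and 3.44 without CIMEF replicates 1 and 2. Postn had a log2 difference of 4.03, or 3.43 without CIMEF replicate 2. Thbs1, or thrombospondin, lost most, at 2567 and 2856 CPM against 18848 and 18127 CPM. Acta2 and Actb, the actins of smooth muscle and of the cytoplasm, stood at 1233 and 1408 CPM against 11749 and 12384 CPM and at 1377 and 1425 CPM against 6123 and 6747 CPM. Flna, or filamin, which links actin filaments, stood at 2952 and 2954 CPM against 12630.3 and 8209 CPM. The other 2 of these transcripts encode matrix proteins, Fn1 fibronectin (9278 and 5071 CPM against 14266 and 12476 CPM) and Col12a1 a collagen that binds to fibrils (863 and 742 CPM against 5947 and 3715 CPM). Fn1 did not pass without DMEF replicate 1 (adjusted p = 0.151) or without DMEF replicate 2 (adjusted p = 0.115). Actin genes have near-identical coding sequences, so reads may have been assigned between Acta1, Acta2, Actb and their relatives with error.

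Genes of mitosis were mostly lower in contact-inhibited fibroblasts. Of this list 2 passed as higher and 20 as lower of 36 tested, with a median log2 difference of -0.49, and 27 of the 36 lay below both dividing libraries in both contact-inhibited ones. The list summed to 4386 and 4056 CPM in the contact-inhibited and 5749 and 5803 CPM in the dividing libraries, so much of its level remained. Plk1, the kinase that drives entry into and passage through mitosis, stood at 31.9 and 30.8 CPM in the contact-inhibited libraries and 104 and 149.7 CPM in the dividing libraries (ENSMUSG00000030867, chr7:122159435-122169884; log2 difference -2.02, SE 0.19, adjusted p = 9.3e-04). Aurka, the kinase of the spindle poles, stood at 35.95 and 28.6 CPM against 108 and 151 CPM (log2 difference -1.999, SE 0.20, adjusted p = 0.00111). Ube2c and Cdc20 serve the ubiquitin ligase that ends mitosis. Ube2c stood at 52.4 and 48.2 CPM against 144 and 199.8 CPM (log2 difference -1.77, SE 0.18, adjusted p = 0.00111) and Cdc20 at 58.1 and 53.9 CPM against 155 and 201 CPM (log2 difference -1.67, SE 0.16, adjusted p = 9.5e-04). The transcription factor genes Mybl2 (12.1 and 11.6 CPM against 28.8 and 31.6 CPM) and Foxm1 (139 and 111 CPM against 239.9 and 272 CPM), which switch on mitotic genes, and Cdk1 (128 and 131 CPM against 249 and 302 CPM), the mitotic kinase, were lower as well. The dividing level of these genes was between 2.05-fold (Foxm1) and 4.05-fold (Plk1) the contact-inhibited one, and both contact-inhibited libraries lay below both dividing libraries for each. Cenpf, a kinetochore protein, was higher instead (387 and 302 CPM against 140.3 and 155 CPM, log2 difference 1.22, SE 0.17, adjusted p = 0.00250). Kif11 was the other higher member and did not pass without DMEF replicate 2 (adjusted p = 0.0802). The members that were lower had a median gene span of 16.2 kb, the 2 higher ones 46.5 kb, and the 14 that did not pass 31.0 kb. With bulk RNA, fewer dividing cells and less RNA per cell cannot be told apart. The counts were 1 higher and 15 lower without DMEF replicate 2.
The cell cycle homology region (CHR), TTTGAA, is the element through which the DREAM complex represses mitotic genes in resting cells. On either strand it was in 23 of 32 promoter windows, 250 bases before to 50 after the start, of the 30 mitotic genes in the RefSeq table (71.9%) and in 17.9% of all 32851 promoters in the table. The sequences around it are shown for the members with the largest differences among those that passed and hold it before the start, from RefSeq (GRCm38.p6), with the motif in capitals, 5′ to 3′ on the strand of the gene. Ube2c is at chr2:164769875-164769928 on the plus strand, with the motif reading TTTGAA on the other strand, and Cdc20 is at chr4:118437344-118437386 on the minus strand.
Ube2c: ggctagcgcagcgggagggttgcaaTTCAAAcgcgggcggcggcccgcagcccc
Cdc20: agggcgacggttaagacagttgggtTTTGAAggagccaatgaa

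DNA replication genes and the cyclin switch were also more often lower than higher. For replication 1 passed as higher and 13 as lower of 34 tested, with a median log2 difference of -0.48. Mcm3, a subunit of the replicative helicase, stood at 160.0 and 141 CPM in the contact-inhibited libraries and 269 and 334 CPM in the dividing libraries (log2 difference -1.002, SE 0.16, adjusted p = 0.00386). Gmnn, the inhibitor of relicensing, stood at 10.4 and 9.01 CPM against 19.9 and 31.1 CPM (log2 difference -1.39, SE 0.24, adjusted p = 0.00510). The origin factors Orc1 (11.9 and 12.4 CPM against 22.9 and 34.3 CPM) and Mcm10 (30.9 and 29.5 CPM against 58.8 and 81.1 CPM) were lower too. Pola1, the catalytic subunit of polymerase alpha, was the only member higher (129.6 and 125 CPM against 90.3 and 63.8 CPM, log2 difference 0.73, SE 0.18, adjusted p = 0.0193). The 13 lower replication genes had a median gene span of 16.2 kb, the 20 that did not pass 12.5 kb, and Pola1 spans 328 kb. Unlike in the mitosis list, the lower members were thus not shorter than those that did not pass. Counts for replication genes were 2 higher and 11 lower without CIMEF replicate 1, 3 higher and 17 lower without DMEF replicate 1 and 2 higher and 8 lower without DMEF replicate 2.
Of the cyclins, CDKs and the Rb-E2F switch 2 passed as higher and 12 as lower of 22 tested, with a median log2 difference of -0.52. Ccnd1, the cyclin induced by growth factors, stood at 83.5 and 120.1 CPM in the contact-inhibited libraries and 403 and 377 CPM in the dividing libraries (ENSMUSG00000070348, chr7:144929931-144939831; log2 difference -1.94, SE 0.19, adjusted p = 0.00102). Ccne1, the cyclin of S phase entry, stood at 32.7 and 21.1 CPM against 69.2 and 73.7 CPM (log2 difference -1.41, SE 0.21, adjusted p = 0.00331). Cdc25a, the phosphatase that activates CDKs, stood at 41.2 and 37.3 CPM against 67.2 and 86.1 CPM. The 2 members that were higher were Rbl2 (115 and 171 CPM against 67.5 and 47.3 CPM) and Rb1 (64.8 and 60.7 CPM against 44.6 and 24.6 CPM), the retinoblastoma family genes that restrain E2F. Neither of the pair passed without DMEF replicate 2 (adjusted p = 0.0593 and 0.0916), nor did Rb1 without CIMEF replicate 1 (adjusted p = 0.0582). Without DMEF replicate 2 this list gave 0 higher and 7 lower.

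CDK inhibitors and genes that restrain growth went both ways, with 7 passed as higher and 3 as lower of 14 tested, with a median log2 difference of 0.53. Cdkn1b, the CDK inhibitor that accumulates in resting cells, stood at 379 and 277 CPM in the contact-inhibited libraries and 119 and 98.5 CPM in the dividing libraries (log2 difference 1.60, SE 0.19, adjusted p = 0.00164). Gas1 and Gas2, both first found as genes expressed on growth arrest, were higher. Gas1 stood at 566 and 655 CPM against 102 and 115 CPM (log2 difference 2.49, SE 0.18, adjusted p = 5.0e-04). Gas2 stood at 339.7 and 335 CPM against 38.1 and 29.7 CPM (log2 difference 3.32, SE 0.17, adjusted p = 2.7e-04). Cdkn1a, the inhibitor induced by DNA damage, moved the other way at 133 and 78.6 CPM against 274 and 281 CPM (log2 difference -1.39, SE 0.24, adjusted p = 0.00529). Cdkn2b and Cdkn2a, also CDK inhibitor genes, were lower too. Cdkn2b stood at 27.0 and 27.8 CPM against 43.2 and 45.3 CPM (log2 difference -0.69, SE 0.15, adjusted p = 0.0126). Cdkn2a stood at 96.0 and 111 CPM against 134 and 158 CPM (log2 difference -0.49, SE 0.16, adjusted p = 0.0417). Counts without single libraries were 3 higher and 2 lower without DMEF replicate 1 and 3 higher and 1 lower without DMEF replicate 2. Among p53 targets, of which Cdkn1a is one of the best known, 1 passed as higher and 8 as lower of 18 tested, with a median log2 difference of -0.58. Gtse1, Bax and the gene of p53 itself, Trp53, were among those lower. Gtse1 stood at 39.3 and 25.7 CPM against 106 and 149 CPM. Bax stood at 23.01 and 19.7 CPM against 50.4 and 52.5 CPM. Trp53 stood at 59.8 and 55.5 CPM against 101 and 137 CPM. For these targets the counts became 1 higher and 13 lower without CIMEF replicate 1, 2 higher and 8 lower without CIMEF replicate 2, 2 higher and 5 lower without DMEF replicate 1 and 0 higher and 4 lower without DMEF replicate 2.

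**Figure D4:**
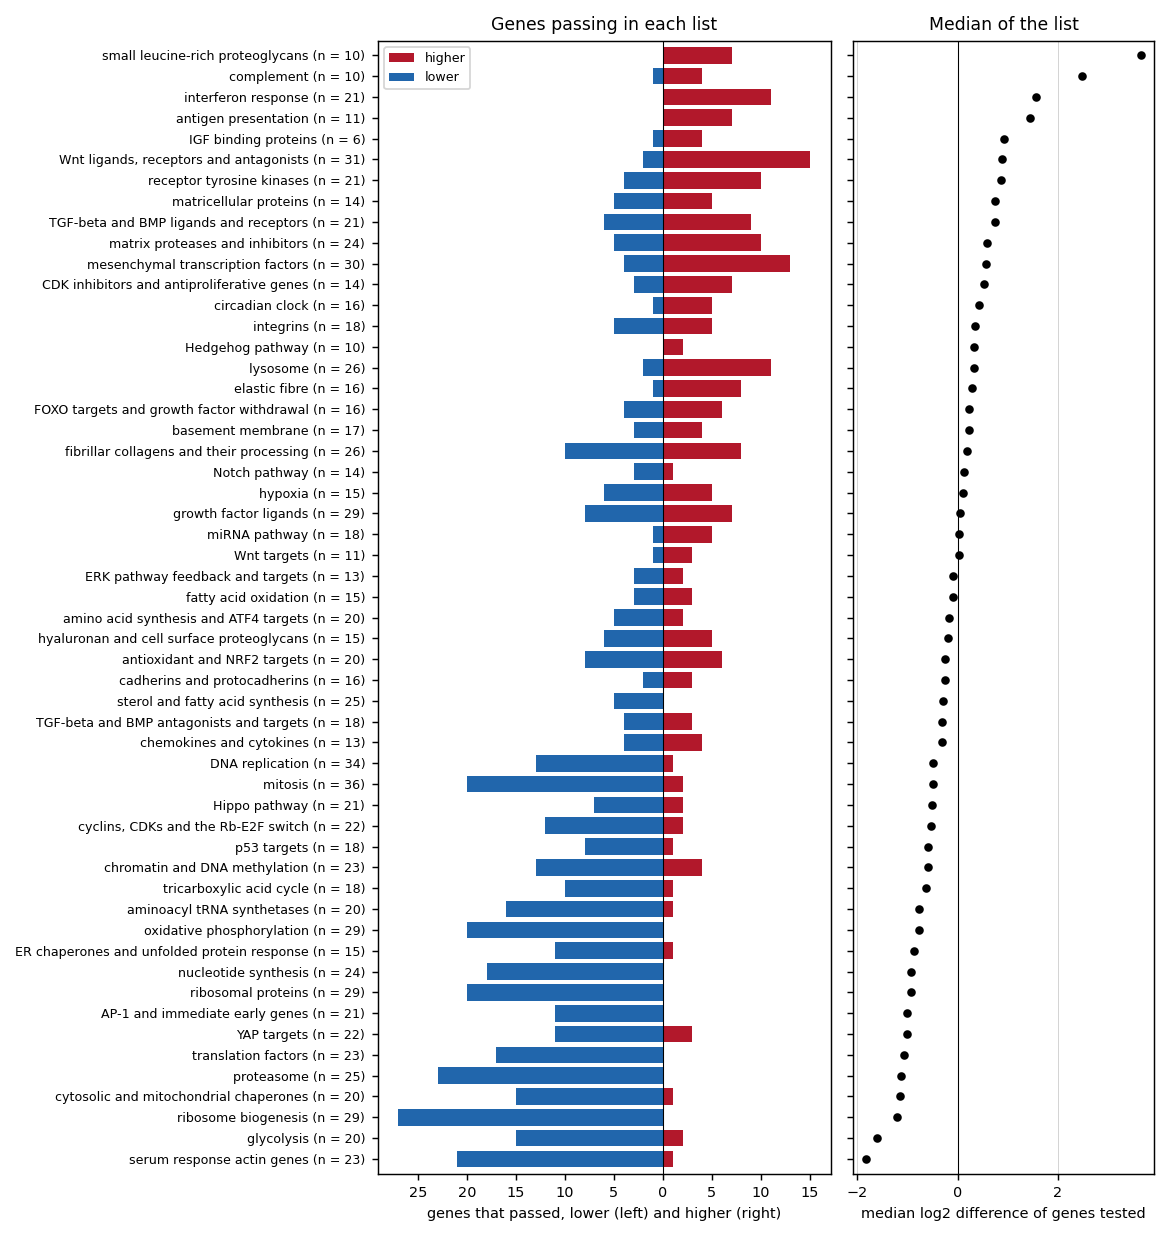
For each function list, the number of genes that passed as lower (left of 0) and higher (right of 0), and beside it the median log2 difference over the list's tested genes; n is the number tested. Proteasome (23 lower, 0 higher) and ribosome biogenesis (27 lower, 0 higher) point one way, while integrins (5 and 5) are split.

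Genes that build ribosomes were nearly all lower. For ribosome biogenesis 0 passed as higher and 27 as lower of 29 tested, with a median log2 difference of -1.21, against 0 for all genes. Rrp9, Rrp12 and Nop16, which take part in processing ribosomal RNA and assembling the subunits, and Nhp2, of the particles that modify RNA, were among the farthest apart. Rrp12 stood at 16.5 and 12.4 CPM in the contact-inhibited libraries and 54.2 and 67.3 CPM in the dividing libraries (ENSMUSG00000035049, chr19:41859483-41896153; log2 difference -2.07, SE 0.19, adjusted p = 8.7e-04). Nhp2 stood at 10.5 and 10.1 CPM against 39.03 and 60.9 CPM and Nop16 at 9.78 and 8.40 CPM against 27.7 and 48.3 CPM. Polr1b, a subunit of RNA polymerase I, stood at 21.7 and 21.5 CPM against 50.7 and 65.3 CPM (log2 difference -1.43, SE 0.16, adjusted p = 0.00144). Ncl, the abundant nucleolar protein nucleolin, stood at 574 and 548 CPM against 836 and 877 CPM (log2 difference -0.61, SE 0.13, adjusted p = 0.0113). The dividing level was thus between 1.53-fold (Ncl) and 5.09-fold (Rrp9) above the contact-inhibited one for the members named. Myc, the transcription factor that drives ribosome production, stood at 12.5 and 14.6 CPM in the contact-inhibited libraries and 109.8 and 65.96 CPM in the dividing libraries (log2 difference -2.70, SE 0.26, adjusted p = 9.4e-04).
Myc and its relatives bind the E-box CACGTG, a palindrome counted once. It was in 6 of 32 promoter windows of 24 ribosome biogenesis genes (18.8%) and in 7.15% of all 32851 promoters. Both windows below are from RefSeq (GRCm38.p6), with the E-box in capitals: Nop2, an RNA methyltransferase of the nucleolus, at chr6:125131798-125131853 on the plus strand, and Rrn3, the initiation factor of RNA polymerase I, at chr16:13780626-13780681 on the plus strand. Their levels were 38.4 and 34.2 CPM against 108 and 174 CPM (log2 difference -1.96, SE 0.23, adjusted p = 0.00164) and 88.5 and 62.2 CPM against 177 and 192 CPM (log2 difference -1.29, SE 0.19, adjusted p = 0.00297).
Nop2: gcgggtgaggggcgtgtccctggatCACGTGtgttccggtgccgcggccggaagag
Rrn3: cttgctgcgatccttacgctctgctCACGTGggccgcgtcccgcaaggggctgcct

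Genes of translation were also mostly lower. Of the ribosomal proteins 0 passed as higher and 20 as lower of 29 tested, with a median log2 difference of -0.93. Counts for ribosomal proteins were 3 higher and 19 lower without CIMEF replicate 1. Rps2 stood at 29.1 and 33.4 CPM against 106 and 119 CPM, Rpl8 at 230.3 and 252 CPM against 648 and 828 CPM and Rplp0 at 277 and 318 CPM against 623 and 809 CPM. Many ribosomal protein genes have near-identical pseudogenes that share their reads, so the values of single members are uncertain. For translation factors 0 passed as higher and 17 as lower of 23 tested, with a median log2 difference of -1.06. Eif5a, which helps ribosomes past difficult sequences, stood at 93.5 and 93.8 CPM in the contact-inhibited libraries and 381 and 517 CPM in the dividing libraries (log2 difference -2.26, SE 0.18, adjusted p = 5.9e-04). Eif4g1, the scaffold of cap binding, stood at 499 and 445 CPM against 1423 and 1678 CPM (log2 difference -1.71, SE 0.15, adjusted p = 8.2e-04). Eif3b, of the initiation complex, stood at 162 and 187 CPM against 569.9 and 671 CPM. Of the aminoacyl tRNA synthetases, which charge tRNAs, 1 passed as higher and 16 as lower of 20 tested, with a median log2 difference of -0.76. Hars and Kars were lower. Hars stood at 55.8 and 50.8 CPM against 122 and 154 CPM. Kars stood at 129 and 156 CPM against 306 and 381 CPM. Eprs, the bifunctional synthetase, was higher (561 and 549.7 CPM against 382 and 268 CPM, log2 difference 0.77, SE 0.18, adjusted p = 0.0162).

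Genes for nucleotides, protein folding and protein breakdown were mostly lower as well. Of genes for nucleotide synthesis 0 passed as higher and 18 as lower of 24 tested, with a median log2 difference of -0.93. Rrm2, the ribonucleotide reductase subunit that limits dNTP supply, stood at 89.1 and 84.2 CPM in the contact-inhibited libraries and 339 and 342 CPM in the dividing libraries (log2 difference -1.97, SE 0.13, adjusted p = 4.1e-04). Ctps, which makes CTP, stood at 76.7 and 90.8 CPM against 331 and 330.3 CPM (log2 difference -1.98, SE 0.15, adjusted p = 5.0e-04). Without CIMEF replicate 1 the counts for this list were 1 higher and 17 lower. Of cytosolic and mitochondrial chaperones 1 passed as higher and 15 as lower of 20 tested, with a median log2 difference of -1.15, or 0 higher and 13 lower without DMEF replicate 2. The 8 subunits of the TRiC chaperonin, which folds actin and tubulin, all passed as lower, with log2 differences from -1.78 for Cct3 (137 and 138 CPM against 410.2 and 531 CPM) to -0.87 for Cct4 (154 and 154 CPM against 261 and 303 CPM). Of the chaperones of the endoplasmic reticulum 1 passed as higher and 11 as lower of 15 tested, with a median log2 difference of -0.87. Counts for ER chaperones and unfolded protein response were 2 higher and 11 lower without CIMEF replicate 1, 0 higher and 9 lower without DMEF replicate 1 and 0 higher and 9 lower without DMEF replicate 2. Calr, or calreticulin, stood at 945 and 1011 CPM against 2545 and 2724 CPM (log2 difference -1.43, SE 0.14, adjusted p = 9.5e-04). Xbp1, the transcription factor of the unfolded protein response, stood at 35.5 and 31.2 CPM against 107 and 96.4 CPM. Of the proteasome subunits 0 passed as higher and 23 as lower of 25 tested, with a median log2 difference of -1.12, and 24 of 25 had both contact-inhibited libraries below both dividing ones. Psmd2, of the regulatory particle, stood at 164 and 159 CPM against 465 and 525 CPM (log2 difference -1.61, SE 0.13, adjusted p = 6.7e-04).

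Genes of glycolysis and of the respiratory chain were mostly lower. Of the glycolysis list 2 passed as higher and 15 as lower of 20 tested, with a median log2 difference of -1.61. Counts for glycolysis were 1 higher and 11 lower without DMEF replicate 2. Pkm, the pyruvate kinase, stood at 197 and 185 CPM in the contact-inhibited libraries and 1068 and 1359 CPM in the dividing libraries (ENSMUSG00000032294, chr9:59656576-59679372; log2 difference -2.67, SE 0.17, adjusted p = 4.1e-04). Ldha, which makes lactate, stood at 161 and 138 CPM against 885 and 1076 CPM (log2 difference -2.71, SE 0.17, adjusted p = 4.1e-04). Pfkl, an isoform of phosphofructokinase, was lower (49.7 and 24.99 CPM against 225 and 228 CPM), while the isoform Pfkp was higher (42.8 and 35.4 CPM against 11.9 and 12.8 CPM, log2 difference 1.66, SE 0.15, adjusted p = 8.2e-04). Slc2a1, the glucose transporter GLUT1, stood at 46.9 and 33.3 CPM against 134 and 139 CPM. Several glycolytic genes, Ldha among them, have processed pseudogenes that can share reads.
Of nuclear genes for oxidative phosphorylation 0 passed as higher and 20 as lower of 29 tested, with a median log2 difference of -0.78. Counts for oxidative phosphorylation were 0 higher and 12 lower without DMEF replicate 2. Atp5b, of the ATP synthase, stood at 565 and 655 CPM against 1798 and 2225 CPM (log2 difference -1.72, SE 0.17, adjusted p = 9.9e-04). Cyc1, a cytochrome of complex III in the respiratory chain, stood at 37.7 and 33.2 CPM against 78.5 and 78.6 CPM. The 13 protein-coding genes of the mitochondrial genome are listed at 0 in every library. Of the tricarboxylic acid cycle 1 passed as higher and 10 as lower of 18 tested, with a median log2 difference of -0.63. Counts for tricarboxylic acid cycle were 2 higher and 10 lower without CIMEF replicate 2 and 0 higher and 9 lower without DMEF replicate 2. Cs, the citrate synthase, stood at 210.0 and 184 CPM against 583 and 524 CPM (log2 difference -1.49, SE 0.14, adjusted p = 9.0e-04). Fatty acid oxidation was split, at 3 higher and 3 lower of 15 tested, near the 19.5% and 21.1% over all genes. Acadl was lower (45.8 and 46.9 CPM against 76.5 and 88.2 CPM).

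Lysosomal genes moved the other way. Of this list 11 passed as higher and 2 as lower of 26 tested, with a median log2 difference of 0.32. Counts for lysosome were 7 higher and 1 lower without DMEF replicate 1 and 9 higher and 1 lower without DMEF replicate 2. Lamp2, a major protein of the lysosomal membrane, stood at 1110.4 and 1322 CPM in the contact-inhibited libraries and 512 and 447 CPM in the dividing libraries (ENSMUSG00000016534, chrX:38399647-38456460; log2 difference 1.34, SE 0.15, adjusted p = 0.00147). The hydrolase genes Gaa and Ctsf, whose enzymes break down glycogen and proteins, stood at 270.1 and 174 CPM against 78.4 and 81.1 CPM and at 30.8 and 30.5 CPM against 10.4 and 9.53 CPM. Of sterol and fatty acid synthesis 0 passed as higher and 5 as lower of 25 tested, with a median log2 difference of -0.29. The share lower was near the 21.1% over all genes. The sterol counts were 0 higher and 10 lower without CIMEF replicate 1, 3 higher and 5 lower without CIMEF replicate 2 and 3 higher and 3 lower without DMEF replicate 1. Of the amino acid synthesis and ATF4 targets 2 passed as higher and 5 as lower of 20 tested, with a median log2 difference of -0.18. Psat1 and Phgdh, of the serine pathway, were lower. Psat1 stood at 169.9 and 204 CPM against 543 and 593 CPM. Phgdh stood at 14.1 and 20.7 CPM against 43.6 and 51.5 CPM. Counts there were 5 higher and 5 lower without CIMEF replicate 1, 3 higher and 8 lower without CIMEF replicate 2, 1 higher and 3 lower without DMEF replicate 1 and 0 higher and 4 lower without DMEF replicate 2.

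Stress and oxygen genes were split within their lists. Of antioxidant and NRF2 targets 6 passed as higher and 8 as lower of 20 tested, with a median log2 difference of -0.24. Counts for antioxidant and NRF2 targets were 3 higher and 7 lower without DMEF replicate 1 and 2 higher and 4 lower without DMEF replicate 2. The metallothionein genes Mt1 and Mt2, which bind zinc and copper, were higher. Mt1 stood at 54.2 and 60.1 CPM against 8.41 and 12.9 CPM (log2 difference 2.42, SE 0.23, adjusted p = 9.0e-04). Mt2 stood at 20.6 and 17.2 CPM against 6.12 and 8.18 CPM. Txnrd1, the thioredoxin reductase, and Gpx1, a glutathione peroxidase, were lower. Txnrd1 stood at 180.3 and 144 CPM against 606 and 623 CPM (log2 difference -1.92, SE 0.15, adjusted p = 6.3e-04). Gpx1 stood at 49.97 and 75.7 CPM against 239 and 252 CPM. Of hypoxia genes 5 passed as higher and 6 as lower of 15 tested, with a median log2 difference of 0.11. Counts for hypoxia were 4 higher and 3 lower without DMEF replicate 1 and 3 higher and 3 lower without DMEF replicate 2. Epas1, which encodes a hypoxia-inducible transcription factor, stood at 22.1 and 48.5 CPM against 1.48 and 1.06 CPM (log2 difference 4.80, SE 0.43, adjusted p = 8.4e-04, or 4.13 without CIMEF replicate 2). Adm, a vasodilator peptide, moved the other way at 10.3 and 9.71 CPM against 37.99 and 58.7 CPM (log2 difference -2.27, SE 0.25, adjusted p = 0.00131).

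Serum response genes of the actin cytoskeleton were lower together. Of this list 1 passed as higher and 21 as lower of 23 tested, with a median log2 difference of -1.82, and the 21 lower members lay below both dividing libraries in both contact-inhibited ones. Cnn1, or calponin, which binds actin in contractile cells, stood at 87.8 and 79.1 CPM in the contact-inhibited libraries and 793 and 782 CPM in the dividing libraries (ENSMUSG00000001349, chr9:22099221-22109221; log2 difference -3.24, SE 0.14, adjusted p = 1.9e-04). Tagln, or transgelin, stood at 264 and 263 CPM against 3072 and 3381 CPM (log2 difference -3.61, SE 0.17, adjusted p = 2.5e-04). Tpm1, a tropomyosin, stood at 1124 and 1372 CPM against 4041 and 3528 CPM (log2 difference -1.60, SE 0.17, adjusted p = 0.00111). Vcl and Zyx, proteins of focal adhesions, stood at 1065 and 867 CPM against 3099.9 and 2538 CPM and at 148 and 202 CPM against 712 and 539.9 CPM. Mylk, the kinase of the myosin light chain, was the exception and was higher, at 70.6 and 114 CPM against 6.77 and 3.64 CPM (log2 difference 4.15, SE 0.40, adjusted p = 9.5e-04). Without CIMEF replicate 1 the counts were 2 higher and 21 lower.
The serum response factor binds the CArG box, written CC, then 6 bases that are A or T, then GG. It was in 6 of the 21 promoter windows of 19 actin genes in the RefSeq table (28.6%) and in 1.63% of all 32851 promoters, on either strand and counted once where palindromic. Windows of the members with the largest differences that hold it are from RefSeq (GRCm38.p6) with the CArG box in capitals. Myl9, the myosin light chain, is at chr2:156775278-156775337 and Cnn2, a calponin, at chr10:79988519-79988578, both on the plus strand. Myl9 stood at 308 and 387 CPM against 1319 and 1671 CPM (log2 difference -2.11, SE 0.21, adjusted p = 9.6e-04). Cnn2 stood at 397 and 577 CPM against 1692 and 1749.5 CPM (log2 difference -1.82, SE 0.20, adjusted p = 0.00130).
Myl9: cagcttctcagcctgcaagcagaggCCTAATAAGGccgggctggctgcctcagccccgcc
Cnn2: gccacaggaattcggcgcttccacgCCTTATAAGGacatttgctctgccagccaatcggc

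The AP-1 and immediate early genes, which serum and growth factors induce within minutes, were lower or did not pass. Of this list 0 passed as higher and 11 as lower of 21 tested, with a median log2 difference of -0.9995. Fosl1, an AP-1 subunit, stood at 3.49 and 2.18 CPM in the contact-inhibited libraries and 39.5 and 32.6 CPM in the dividing libraries (ENSMUSG00000024912, chr19:5447698-5455938; log2 difference -3.66, SE 0.29, adjusted p = 6.1e-04). Jun stood at 23.5 and 39.00 CPM against 115 and 108 CPM (log2 difference -1.84, SE 0.24, adjusted p = 0.00233). Srf, the serum response factor itself, stood at 54.9 and 56.2 CPM against 144 and 146 CPM (log2 difference -1.38, SE 0.13, adjusted p = 8.7e-04). Counts were 2 higher and 10 lower without CIMEF replicate 1 and 4 higher and 13 lower without CIMEF replicate 2. The AP-1 site TGANTCA, searched on both strands, was in 0 of 19 promoter windows of 15 list genes and in 7.81% of all promoters. ERK pathway feedback genes were split, at 2 higher and 3 lower of 13 tested, with Etv4 lower (6.21 and 5.05 CPM against 14.7 and 16.9 CPM) and Etv1 higher (6.06 and 6.75 CPM against 0.881 and 0.644 CPM), both transcription factors of the ETS family. The shares for the ERK genes were near the 19.5% and 21.1% over all genes. For these the counts were 4 higher and 2 lower without CIMEF replicate 1, 1 higher and 2 lower without DMEF replicate 1 and 1 higher and 3 lower without DMEF replicate 2.

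YAP, the coactivator that cell contact inactivates, and its partners were lower in part. Of YAP targets 3 passed as higher and 11 as lower of 22 tested, with a median log2 difference of -1.01. Counts for YAP targets were 2 higher and 7 lower without DMEF replicate 1 and 1 higher and 7 lower without DMEF replicate 2. Ccn1, a secreted matricellular protein, stood at 252 and 232 CPM in the contact-inhibited libraries and 1596 and 1357 CPM in the dividing libraries (log2 difference -2.61, SE 0.16, adjusted p = 3.5e-04). F3, the tissue factor of blood clotting, stood at 30.2 and 30.4 CPM against 191 and 159.5 CPM (log2 difference -2.53, SE 0.16, adjusted p = 4.1e-04). Axl, a receptor tyrosine kinase, stood at 223 and 257 CPM against 732 and 649.6 CPM (log2 difference -1.53, SE 0.15, adjusted p = 9.5e-04). The higher members were Rbms3 (241 and 313 CPM against 81.3 and 40.8 CPM), Nt5e (24.9 and 7.62 CPM against 2.32 and 3.09 CPM) and Igfbp3 (14.1 and 78.96 CPM against 3.08 and 4.12 CPM). Nt5e and Igfbp3 did not pass without DMEF replicate 2 (adjusted p = 0.0733 and 0.0894) or without DMEF replicate 1 (adjusted p = 0.0772 and 0.0875). Igfbp3 had a log2 difference of 4.51 without CIMEF replicate 1 and 1.96 without CIMEF replicate 2, from 3.68, and Nt5e 1.55 and 3.19, from 2.58. Rbms3 had a log2 difference of 2.18, or 2.79 without DMEF replicate 1. Within the Hippo pathway 2 passed as higher and 7 as lower of 21 tested, with a median log2 difference of -0.51. Yap1 itself stood at 231 and 219 CPM against 367 and 337 CPM (log2 difference -0.65, SE 0.13, adjusted p = 0.00834). Tead4, a DNA-binding partner, stood at 5.02 and 9.01 CPM against 22.02 and 28.1 CPM (log2 difference -1.84, SE 0.29, adjusted p = 0.00374). Stk3, a kinase at the head of the pathway, was higher, at 147 and 123 CPM against 71.9 and 58.5 CPM.
TEAD factors bind GGAATG. It was in 7 of 17 promoter windows of 15 YAP targets in the RefSeq table (41.2%) and in 14.7% of all 32851 promoters, on either strand. Ankrd1, a nuclear protein also induced by stretch, stood at 0.0372 and 0.522 CPM against 5.44 and 2.87 CPM (log2 difference -3.92, SE 0.85, adjusted p = 0.0116). Its log2 difference was -2.91 and -6.63 without CIMEF replicates 1 and 2, and it did not pass without either dividing library (adjusted p = 0.0697 and 0.0532). Its window is at chr19:36119937-36119992 and that of Ccn1 at chr3:145650058-145650113, both on the minus strand of RefSeq GRCm38.p6, with the motif in capitals. In Ccn1 the motif reads GGAATG on the other strand.
Ankrd1: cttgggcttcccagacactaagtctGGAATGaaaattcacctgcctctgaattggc
Ccn1: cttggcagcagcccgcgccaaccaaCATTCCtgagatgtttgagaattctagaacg

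Adhesion genes were split. Of the integrins 5 passed as higher and 5 as lower of 18 tested, with a median log2 difference of 0.35. Counts for integrins were 3 higher and 3 lower without DMEF replicate 1 and 1 higher and 4 lower without DMEF replicate 2. Itga5, the fibronectin receptor subunit, stood at 178 and 149.7 CPM in the contact-inhibited libraries and 610.1 and 506 CPM in the dividing libraries (log2 difference -1.77, SE 0.16, adjusted p = 8.7e-04). Itga3 and Itga6, of laminin receptors, stood at 34.3 and 59.8 CPM against 137 and 130.4 CPM and at 43.7 and 59.03 CPM against 172 and 140.4 CPM. Itgb8, which takes part in activating TGF-beta, was higher (23.7 and 16.6 CPM against 7.65 and 7.60 CPM, log2 difference 1.40, SE 0.27, adjusted p = 0.00754). Of cadherins and protocadherins 3 passed as higher and 2 as lower of 16 tested, with a median log2 difference of -0.25. The share higher was near the 19.5% over all genes, and the share lower was below the 21.1% over all genes. Cdh11, the cadherin typical of fibroblasts, stood at 1074 and 64.2 CPM against 63.8 and 59.1 CPM (log2 difference 3.21, SE 1.05, adjusted p = 0.0471), so the high value was in replicate 1 of the contact-inhibited cells. Without that library its log2 difference was 0.13 (adjusted p = 0.584), without CIMEF replicate 2 it was 4.12, and it did not pass without DMEF replicate 1 or 2 either (adjusted p = 0.206 and 0.242). Cadherin counts were 3 higher and 8 lower without CIMEF replicate 1, 5 higher and 1 lower without CIMEF replicate 2, 2 higher and 0 lower without DMEF replicate 1 and 1 higher and 0 lower without DMEF replicate 2.

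**Figure D5:**
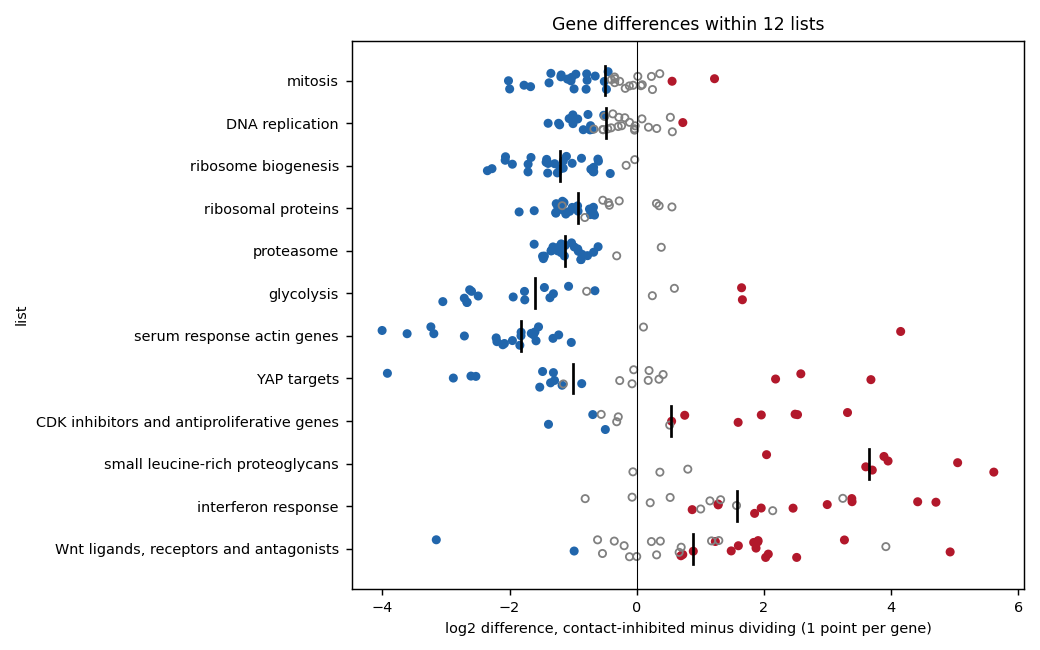
Log2 difference of every tested gene in 12 lists, 1 point per gene; genes that passed as higher and as lower are coloured, and the others are grey. Ribosome biogenesis, proteasome and serum response actin genes lie almost wholly below 0, and small leucine-rich proteoglycans (7 higher, 0 lower) and interferon response genes (11 higher, 0 lower) mostly above it.

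The small leucine-rich proteoglycans, which coat collagen fibrils and bind growth factors, were mostly higher: 7 passed as higher and 0 as lower of 10 tested, with a median log2 difference of 3.65. Dcn, or decorin, stood at 58.00 and 24.3 CPM in the contact-inhibited libraries and 1.36 and 1.13 CPM in the dividing libraries (ENSMUSG00000019929, chr10:97479500-97518163; log2 difference 5.05, SE 0.49, adjusted p = 9.4e-04). Ogn, or osteoglycin, stood at 4801 and 4517 CPM against 484 and 283 CPM (log2 difference 3.60, SE 0.28, adjusted p = 5.9e-04). Omd, or osteomodulin, stood at 49.3 and 86.97 CPM against 6.24 and 4.22 CPM (log2 difference 3.71, SE 0.35, adjusted p = 8.8e-04). Lum, or lumican, stood at 9.96 and 27.2 CPM against 0.360 and 0.386 CPM, and Aspn and Ecm2 at 452 and 414 CPM against 133 and 77.3 CPM and at 19.6 and 32.6 CPM against 1.92 and 1.45 CPM. Without CIMEF replicate 2 the counts were 8 higher and 1 lower. Dcn had a log2 difference of 4.35 without CIMEF replicate 1, and Lum, at 5.62 in the full set, had 6.23 and 4.72 without CIMEF replicates 1 and 2.
Elastic fibre genes were higher in part, with 8 passed as higher and 1 as lower of 16 tested, with a median log2 difference of 0.29. Counts for elastic fibre were 9 higher and 2 lower without CIMEF replicate 1, 9 higher and 4 lower without CIMEF replicate 2, 7 higher and 0 lower without DMEF replicate 1 and 7 higher and 0 lower without DMEF replicate 2. Eln, which encodes elastin, stood at 151 and 1805 CPM against 13.5 and 6.80 CPM, far higher in CIMEF replicate 2 than in replicate 1. Its log2 difference of 6.60 became 7.55 and 3.90 without CIMEF replicates 1 and 2, and it did not pass without DMEF replicate 1 or 2 (adjusted p = 0.0553 and 0.0836). The microfibril genes were closer between replicates: Mfap4 stood at 45.4 and 22.5 CPM against 1.80 and 1.35 CPM (log2 difference 4.43, SE 0.42, adjusted p = 9.2e-04). Mfap2 stood at 70.01 and 39.2 CPM against 7.65 and 5.35 CPM (log2 difference 3.07, SE 0.33, adjusted p = 0.00132). Fbln1, or fibulin, stood at 213 and 255 CPM against 59.1 and 59.1 CPM (log2 difference 1.98, SE 0.14, adjusted p = 5.0e-04).

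Fibrillar collagens and their processing enzymes went both ways, with 8 passed as higher and 10 as lower of 26 tested, with a median log2 difference of 0.20. Counts for fibrillar collagens and their processing were 4 higher and 6 lower without DMEF replicate 1 and 1 higher and 6 lower without DMEF replicate 2. Adamts2, which removes the amino-terminal propeptide of collagens, was higher (85.8 and 118 CPM against 37.5 and 33.4 CPM, log2 difference 1.52, SE 0.19, adjusted p = 0.00202). Col5a1 and Col5a2, chains of a collagen that starts fibrils, were lower. Col5a1 stood at 1281 and 1214 CPM against 2297 and 1951 CPM (log2 difference -0.77, SE 0.15, adjusted p = 0.00794). Col5a2 stood at 1416 and 1560.5 CPM against 4379.7 and 3800.5 CPM (log2 difference -1.46, SE 0.17, adjusted p = 0.00149). P4ha1 and Plod3, which hydroxylate collagen in the cell, were lower too. P4ha1 stood at 240.2 and 210.3 CPM against 426 and 421 CPM. Plod3 stood at 111 and 109 CPM against 206 and 216 CPM. Basement membrane genes had 4 higher and 3 lower of 17 tested, near the 19.5% and 21.1% over all genes. Counts for basement membrane were 0 higher and 1 lower without DMEF replicate 1 and 0 higher and 1 lower without DMEF replicate 2. Col18a1 was lower (16.8 and 12.7 CPM against 52.8 and 68.4 CPM, log2 difference -2.03, SE 0.20, adjusted p = 9.9e-04). The laminin chains Lama2 and Lama4 stood at 317 and 32.8 CPM against 25.7 and 21.3 CPM and at 57.5 and 6.40 CPM against 2.88 and 2.45 CPM, so both were high mainly in CIMEF replicate 1. Neither laminin gene passed without DMEF replicate 2 (adjusted p = 0.222 and 0.159) or DMEF replicate 1 (adjusted p = 0.171 and 0.123). Without CIMEF replicate 1 Lama2 did not pass (adjusted p = 0.134) and Lama4 had a log2 difference of 1.33, and without CIMEF replicate 2 the log2 differences of Lama2 and Lama4 were 3.75 and 4.43, from 2.90 and 3.59.

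Matricellular proteins, which modulate adhesion, had 5 higher and 5 lower of 14 tested. Counts for matricellular proteins were 8 higher and 5 lower without CIMEF replicate 2, 4 higher and 2 lower without DMEF replicate 1 and 4 higher and 2 lower without DMEF replicate 2. Tnxb, a tenascin, was higher (5.32 and 6.88 CPM against 0.480 and 0.258 CPM, log2 difference 4.05, SE 0.46, adjusted p = 0.00144). Spp1, or osteopontin, was lower (14.1 and 8.14 CPM against 100.2 and 86.7 CPM, log2 difference -3.07, SE 0.26, adjusted p = 7.3e-04). Hyaluronan and cell surface proteoglycan genes had 5 higher and 6 lower of 15 tested. Counts for hyaluronan and cell surface proteoglycans were 2 higher and 4 lower without DMEF replicate 1 and 1 higher and 3 lower without DMEF replicate 2. Has2, the main hyaluronan synthase of fibroblasts, and Cd44, the hyaluronan receptor, were lower together. Has2 stood at 6.51 and 4.83 CPM against 71.9 and 48.3 CPM (log2 difference -3.40, SE 0.31, adjusted p = 8.6e-04). Cd44 stood at 72.1 and 97.03 CPM against 522 and 544 CPM (log2 difference -2.66, SE 0.19, adjusted p = 5.0e-04). Hyal1, a lysosomal hyaluronidase, was higher (8.92 and 8.05 CPM against 1.96 and 1.51 CPM). Among matrix proteases and inhibitors 10 passed as higher and 5 as lower of 24 tested, with a median log2 difference of 0.59, or 6 higher and 5 lower without DMEF replicate 2. The plasminogen system was split. Besides Plaur, Plau, or urokinase, was lower (34.1 and 17.5 CPM against 143 and 136 CPM, log2 difference -2.44, SE 0.30, adjusted p = 0.00185). Plat, the tissue plasminogen activator, was higher (80.7 and 105 CPM against 34.1 and 27.1 CPM, log2 difference 1.61, SE 0.20, adjusted p = 0.00179). Mmp2, a gelatinase, was higher (1143 and 1004 CPM against 341 and 314 CPM), and Timp1, an inhibitor of metalloproteases, lower (29.3 and 53.1 CPM against 185 and 239 CPM).

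Growth factor ligands were split, with 7 higher and 8 lower of 29 tested. These shares were a little above the 19.5% and 21.1% over all genes. Counts for growth factor ligands were 4 higher and 5 lower without DMEF replicate 1 and 3 higher and 7 lower without DMEF replicate 2. The neurotrophic factor genes Bdnf and Gdnf were lower together. Bdnf stood at 11.3 and 17.9 CPM against 98.5 and 77.3 CPM. Gdnf stood at 1.23 and 1.31 CPM against 11.6 and 10.7 CPM. Csf1, the macrophage growth factor, was lower too (165 and 257 CPM against 1164 and 1137 CPM, log2 difference -2.45, SE 0.23, adjusted p = 8.7e-04). Angpt1, which steadies blood vessels, and Fgf2 were higher. Angpt1 stood at 186 and 91.02 CPM against 11.7 and 8.70 CPM (log2 difference 3.76, SE 0.40, adjusted p = 0.00128). Fgf2 stood at 56.96 and 32.6 CPM against 11.8 and 6.99 CPM (log2 difference 2.25, SE 0.38, adjusted p = 0.00494). Of the receptor tyrosine kinases 10 passed as higher and 4 as lower of 21 tested, with a median log2 difference of 0.88. Counts for receptor tyrosine kinases were 6 higher and 1 lower without DMEF replicate 1 and 5 higher and 2 lower without DMEF replicate 2. Egfr, the receptor of EGF, stood at 1131 and 563 CPM in the contact-inhibited libraries and 113 and 94.7 CPM in the dividing libraries (ENSMUSG00000020122, chr11:16752203-16913907; log2 difference 3.03, SE 0.34, adjusted p = 0.00139). Mertk, which serves the uptake of dead cells, and Ror1, a Wnt receptor, were higher. Mertk stood at 26.3 and 27.5 CPM against 4.12 and 3.06 CPM. Ror1 stood at 63.2 and 44.3 CPM against 10.2 and 10.4 CPM. Ror2 was lower (38.7 and 38.2 CPM against 70.7 and 91.2 CPM). IGF binding proteins had 4 higher and 1 lower of 6 tested. Counts for IGF binding proteins were 3 higher and 2 lower without CIMEF replicate 1, 3 higher and 0 lower without DMEF replicate 1 and 2 higher and 0 lower without DMEF replicate 2. Igfbp2 stood at 203 and 109 CPM against 42.7 and 42.6 CPM (log2 difference 1.87, SE 0.28, adjusted p = 0.00327).

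Ligands and receptors of the TGF-beta family went both ways. Of these genes 9 passed as higher and 6 as lower of 21 tested, with a median log2 difference of 0.74. Of the 6 lower genes 4 encode ligands and of the 9 higher ones 7 encode receptors. Ligands and receptors among all 21 were not counted, so this split may reflect the make-up of the list. The lower ligand gene Gdf15 was under 1 CPM in every fibroblast library (0.112 and 0.0871 CPM against 0.721 and 0.805 CPM). The activin subunits Inhba and Inhbb were lower. Inhba stood at 58.2 and 67.5 CPM in the contact-inhibited libraries and 419 and 334 CPM in the dividing libraries (log2 difference -2.58, SE 0.20, adjusted p = 5.9e-04). Among receptors, Tgfbr3, or betaglycan, stood at 258 and 315 CPM against 72.2 and 83.5 CPM (log2 difference 1.88, SE 0.16, adjusted p = 7.3e-04). Bmpr1b stood at 45.1 and 77.6 CPM against 11.8 and 9.98 CPM (log2 difference 2.50, SE 0.29, adjusted p = 0.00150). Tgfbr1, Bmpr1a and Acvr2a were higher as well. Tgfbr1 stood at 96.96 and 101 CPM against 63.2 and 53.9 CPM. Bmpr1a stood at 579.6 and 529 CPM against 344 and 285 CPM. Acvr2a stood at 79.2 and 71.8 CPM against 32.4 and 36.4 CPM. The ligand Gdf6 was higher (30.7 and 19.1 CPM against 5.96 and 6.89 CPM) and the receptor Acvr1 lower (63.9 and 65.7 CPM against 104 and 112 CPM). Of antagonists and targets 3 passed as higher and 4 as lower of 18 tested, with a median log2 difference of -0.31. These shares were near those over all genes, 19.5% higher and 21.1% lower. Counts for TGF-beta and BMP antagonists and targets were 5 higher and 4 lower without CIMEF replicate 1, 2 higher and 9 lower without CIMEF replicate 2 and 0 higher and 4 lower without DMEF replicate 2. Smad7, the feedback inhibitor that TGF-beta induces, was lower, at 24.5 and 20.9 CPM against 67.7 and 45.2 CPM (log2 difference -1.31, SE 0.22, adjusted p = 0.00487).

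Wnt ligands, receptors and antagonists were more often higher than lower. Of ligands, receptors and antagonists 15 passed as higher and 2 as lower of 31 tested, with a median log2 difference of 0.89. Counts for Wnt ligands, receptors and antagonists were 19 higher and 4 lower without CIMEF replicate 2, 8 higher and 1 lower without DMEF replicate 1 and 6 higher and 1 lower without DMEF replicate 2. Among ligands and agonists, Wnt5b stood at 44.7 and 22.7 CPM in the contact-inhibited libraries and 4.76 and 6.99 CPM in the dividing libraries (log2 difference 2.52, SE 0.35, adjusted p = 0.00278). Rspo3, an R-spondin, stood at 159 and 278 CPM against 52.7 and 54.3 CPM (log2 difference 2.03, SE 0.27, adjusted p = 0.00231). Wnt2 was lower instead (0.112 and 0.218 CPM against 1.60 and 1.35 CPM, log2 difference -3.15, SE 0.52, adjusted p = 0.00474). The receptor genes Fzd1 and Lrp6 were higher. Fzd1 stood at 245 and 263 CPM against 81.3 and 86.5 CPM. Lrp6 stood at 844 and 720.4 CPM against 288 and 269.7 CPM. The secreted antagonist Dkk2 stood at 442 and 1248 CPM against 34.9 and 20.5 CPM (log2 difference 4.93, or 5.56 and 3.996 without CIMEF replicates 1 and 2). Of 11 target genes of the pathway, 3 were higher and 1 lower, or 3 and 2 without CIMEF replicate 1 and 3 and 3 without CIMEF replicate 2. Axin2, the target most used as a readout, stood at 9.63 and 8.23 CPM against 2.92 and 3.77 CPM (log2 difference 1.41, SE 0.19, adjusted p = 0.00253), and Apcdd1 was lower (5.99 and 5.92 CPM against 15.8 and 18.97 CPM).

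Smaller pathways showed single genes. Of Hedgehog genes 2 of 10 passed, both higher, which is near the 19.5% of all genes tested that were higher. Boc, a coreceptor, was one of them (289.5 and 438 CPM against 75.5 and 74.4 CPM, log2 difference 2.28, SE 0.21, adjusted p = 8.7e-04). In the Notch pathway 1 passed as higher and 3 as lower of 14 tested, with a median log2 difference of 0.13, or 3 higher and 4 lower without CIMEF replicate 2. The share lower in the full set was near the 21.1% over all genes. Dll1 was the only higher member (log2 difference 4.10, adjusted p = 0.00243). Among the lower members were the target genes Hes1 and Hey2. Hes1 stood at 9.03 and 9.32 CPM against 47.2 and 36.5 CPM (log2 difference -2.19, SE 0.19, adjusted p = 7.3e-04). Hey2 stood at 1.78 and 1.92 CPM against 5.92 and 8.02 CPM (log2 difference -1.91, SE 0.33, adjusted p = 0.00508). Of FOXO targets and genes of growth factor withdrawal 6 passed as higher and 4 as lower of 16 tested, with a median log2 difference of 0.23. Counts for FOXO targets and growth factor withdrawal were 7 higher and 2 lower without CIMEF replicate 1, 6 higher and 0 lower without DMEF replicate 1 and 5 higher and 0 lower without DMEF replicate 2. Sesn1 and Sesn3, sestrins that restrain mTORC1, were higher. Sesn1 stood at 89.7 and 115 CPM against 26.5 and 26.1 CPM (log2 difference 1.96, SE 0.17, adjusted p = 7.3e-04). Sesn3 stood at 343 and 279.9 CPM against 65.2 and 37.1 CPM (log2 difference 2.61, SE 0.27, adjusted p = 0.00117). Foxo3 was higher too (158 and 165 CPM against 86.99 and 107 CPM). Of circadian clock genes 5 passed as higher and 1 as lower of 16 tested, with a median log2 difference of 0.42. Counts for circadian clock were 7 higher and 2 lower without CIMEF replicate 1, 5 higher and 0 lower without DMEF replicate 1 and 5 higher and 0 lower without DMEF replicate 2. The output factors Dbp and Tef, which bind D-boxes, were higher. Dbp stood at 35.5 and 31.2 CPM against 8.41 and 6.38 CPM (log2 difference 2.18, SE 0.23, adjusted p = 0.00113). Tef stood at 303 and 369 CPM against 163 and 135 CPM (log2 difference 1.18, SE 0.16, adjusted p = 0.00253). Nr1d2, a repressor of the clock, was also higher (134 and 139 CPM against 71.97 and 55.2 CPM). The time of day of the harvests is not given in the sources used here.

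Interferon response genes were higher where they passed, and the contact-inhibited replicates differed in them. Of this list 11 passed as higher and 0 as lower of 21 tested, with a median log2 difference of 1.57. Counts for interferon response were 19 higher and 0 lower without CIMEF replicate 2, 5 higher and 0 lower without DMEF replicate 1 and 3 higher and 0 lower without DMEF replicate 2. Ifit2, which blocks translation of viral RNA, stood at 142 and 189 CPM in the contact-inhibited libraries and 45.03 and 40.1 CPM in the dividing libraries (ENSMUSG00000045932, chr19:34550550-34576534; log2 difference 1.96, SE 0.18, adjusted p = 8.8e-04). Ifi27 stood at 54.5 and 38.6 CPM against 13.9 and 11.9 CPM (log2 difference 1.85, SE 0.22, adjusted p = 0.00171). Ifit3 stood at 11.04 and 4.96 CPM against 0.681 and 0.837 CPM (log2 difference 3.39, SE 0.52, adjusted p = 0.00352, or 2.76 without CIMEF replicate 1). Ifit1 stood at 51.5 and 9.14 CPM against 2.88 and 2.93 CPM (log2 difference 3.38, SE 0.75, adjusted p = 0.0124). It had log2 differences of 1.72 and 4.14 without CIMEF replicates 1 and 2 and did not pass without DMEF replicate 1 or 2 (adjusted p = 0.0931 and 0.110). The summed level of the list was 544 and 382 CPM in contact-inhibited and 172 and 167 CPM in dividing fibroblasts, highest in CIMEF replicate 1.
The interferon-stimulated response element has the core GAAA, then 2 bases of any kind, then GAAA. On either strand it was in 9 of 18 promoter windows of 16 list genes in the RefSeq table and in 3.44% of all 32851 promoters. Windows are shown for Ifit3 at chr19:34583382-34583441 and Ifit1 at chr19:34640779-34640838, both on the plus strand of RefSeq GRCm38.p6. The element nearest before the start is in capitals, on the strand opposite to the core as spelled. Another match in the Ifit1 window is left in lower case.
Ifit3: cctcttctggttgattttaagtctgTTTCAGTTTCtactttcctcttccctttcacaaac
Ifit1: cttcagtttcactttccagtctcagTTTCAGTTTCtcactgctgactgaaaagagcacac

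Other immune genes were higher in part. Of antigen presentation 7 passed as higher and 0 as lower of 11 tested, with a median log2 difference of 1.44. Counts for antigen presentation were 3 higher and 0 lower without DMEF replicate 1 and 1 higher and 0 lower without DMEF replicate 2. Tapbp, or tapasin, which loads peptides onto class I molecules, stood at 149.9 and 167 CPM against 62.5 and 66.3 CPM (log2 difference 1.30, SE 0.13, adjusted p = 0.00108). Of complement genes 4 passed as higher and 1 as lower of 10 tested, with a median log2 difference of 2.49, or 5 higher and 2 lower without CIMEF replicate 1. C1s1 and C1ra, the proteases of the first component, and C4b, their substrate, were higher. C1s1 stood at 127 and 85.5 CPM against 8.53 and 8.31 CPM (log2 difference 3.66, SE 0.23, adjusted p = 4.1e-04). C1ra stood at 35.7 and 40.4 CPM against 8.37 and 7.50 CPM (log2 difference 2.26, SE 0.21, adjusted p = 9.0e-04). C4b stood at 15.1 and 27.1 CPM against 1.08 and 0.676 CPM (log2 difference 4.59, SE 0.55, adjusted p = 0.00165). Chemokines and cytokines had 4 higher and 4 lower of 13 tested. Counts for chemokines and cytokines were 1 higher and 3 lower without DMEF replicate 1 and 1 higher and 3 lower without DMEF replicate 2. Cxcl12, which retains leukocytes and stem cells in tissue, was higher (log2 difference 2.04, SE 0.22, adjusted p = 0.00134). Ccl2, which draws monocytes, was lower (0.446 and 0.392 CPM against 8.05 and 4.57 CPM, log2 difference -3.89, SE 0.52, adjusted p = 0.00236). The defining leukocyte markers summed to at most 4.48 CPM in these libraries.

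Regulators of mesenchymal identity were more often higher and chromatin genes more often lower. Of mesenchymal transcription factors 13 passed as higher and 4 as lower of 30 tested, with a median log2 difference of 0.56. Counts for mesenchymal transcription factors were 11 higher and 2 lower without DMEF replicate 1 and 10 higher and 1 lower without DMEF replicate 2. Osr2, known from embryonic mesenchyme, stood at 86.3 and 87.4 CPM against 4.60 and 5.19 CPM (log2 difference 4.15, SE 0.18, adjusted p = 1.9e-04). Prrx1 and Tcf4 were higher. Prrx1 stood at 909.8 and 748 CPM against 415 and 323 CPM. Tcf4 stood at 547 and 518 CPM against 200.4 and 143 CPM. Snai2 was higher while its relative Snai1 was lower. Snai2 stood at 159.6 and 123 CPM against 67.9 and 48.5 CPM (log2 difference 1.28, SE 0.21, adjusted p = 0.00451). Snai1 stood at 4.87 and 7.79 CPM against 31.9 and 47.6 CPM (log2 difference -2.65, SE 0.31, adjusted p = 0.00156). Of chromatin and DNA methylation genes 4 passed as higher and 13 as lower of 23 tested, with a median log2 difference of -0.59. Counts for chromatin and DNA methylation were 2 higher and 8 lower without DMEF replicate 2. The architectural genes Hmga1 and Hmga2, high in growing embryonic cells, were lower. Hmga1 stood at 3.98 and 3.26 CPM against 30.8 and 46.4 CPM (log2 difference -3.41, SE 0.25, adjusted p = 5.1e-04). Hmga2 stood at 67.7 and 40.5 CPM against 302 and 275 CPM (log2 difference -2.41, SE 0.25, adjusted p = 0.00115). The methyltransferases were split. Dnmt1, which copies methylation at replication, was lower (338 and 321 CPM against 502 and 487 CPM, log2 difference -0.59, SE 0.13, adjusted p = 0.0110). Dnmt3a, which sets it anew, was higher (155 and 177 CPM against 70.5 and 68.4 CPM, log2 difference 1.26, SE 0.13, adjusted p = 0.00118). Ezh1, a Polycomb methyltransferase, was higher (55.1 and 61.2 CPM against 14.3 and 11.4 CPM), while its relative Ezh2 did not pass (110.5 and 74.4 CPM against 123 and 128 CPM).
Of genes of the miRNA pathway 5 passed as higher and 1 as lower of 18 tested, with a median log2 difference of 0.03. Xpo5, which exports precursors from the nucleus, was lower (94.3 and 106 CPM against 203 and 199 CPM, log2 difference -1.003, SE 0.13, adjusted p = 0.00218). Tut4, which adds uridines to miRNAs and their precursors, and Ago3, an Argonaute, were higher. Tut4 stood at 155 and 119 CPM against 40.7 and 42.97 CPM (log2 difference 1.71, SE 0.17, adjusted p = 9.5e-04). Ago3 stood at 149.5 and 137 CPM against 90.5 and 66.3 CPM (log2 difference 0.87, SE 0.17, adjusted p = 0.00899). Another Argonaute, Ago2, did not pass (355 and 288 CPM against 448 and 360.3 CPM).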

How the data were processed

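Messenger RNA of 2 contact-inhibited, 2 dividing and 2 stem cell libraries was read from 1 table of raw counts per gene that the authors deposited, with no normalization. Per the submitters' processing notes, cutadapt, STAR 2.4 and HTSeq 0.9.1 were used with the mouse build mm10/GRCm38. Whether counting used the strand of the directional kit is not given in the sources used here, so counts of overlapping and antisense genes are uncertain. A symbol was found in the reference tables for 54409 of the 54532 identifiers. Samples were grouped by their titles, and no column was left out.

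Counts were tested with edgeR 4.0.16 in R 4.3.3 (its expression filter on group, TMM scaling, quasi-likelihood test of CIMEF minus DMEF in a fit of all 6 libraries, two-sided, Benjamini-Hochberg adjustment over 18094 genes, threshold 0.05). CPM used the TMM-scaled totals. Library totals of 23030907 to 34093791 counts limit what low genes can show. DESeq2 1.42.0, other scalings and filters, the fibroblast libraries alone, a block on replicate number, a test against a log2 difference of 1 and leaving out each library were tried. The procedure was tested on simulated data.

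The 55 function lists, 11 marker lists, the motifs and the genes named were chosen with earlier results of these data known. Named genes were, among those that passed, the 12 per direction with the widest gap between states on log2(CPM + 1), the 6 per direction with the largest difference in mean CPM, and up to 4 per list and direction with the largest log2 difference. The 8 genes farthest apart between the contact-inhibited libraries, with a mean of at least 10 CPM, were added, and any list member could be named with its values. Some genes that the rules chose are not reported here. All genes of the lists were found in the table.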

Additional observations from a re-analysis of the deposited data

How the results depend on the processing

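The numbers of genes higher and lower kept within 1.5 times their values with DESeq2 (3691 and 3226), the fibroblast libraries alone (2760 and 2604), other scalings and other filters on low counts. Against a log2 difference of 1 they were 896 and 700, since only larger differences can pass that test. Leaving out 1 library gave 1605 to 4370 higher and 2000 to 4009 lower, with the lowest of both without DMEF replicate 2. No gene called in the full set had the opposite sign in any alternative. The share of calls tested that remained was 74.6% with the fibroblast libraries alone, 86.8% with DESeq2, 85.7% with library totals, 68.0% without DMEF replicate 1 and 47.8% without DMEF replicate 2. Of 132 counts of list members higher or lower, 14 moved by over 1.5 times with DESeq2, 18 with the fibroblast libraries alone, 18 with library totals, 23 with no filter on low counts, 6 each with RLE and upper quartile scaling and 4 with a minimum of 1 CPM in 2 fibroblast libraries. Against a log2 difference of 1, 91 moved, and without 1 library 24 to 61. The cause was not tested.

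Of the 8 genes named for the distance between the contact-inhibited libraries, 7 changed sign without 1 of them, and AW551984 did not. Leaving out each library in turn, the log2 difference ran from -2.90 to 3.01 for Meg3, -3.75 to 1.63 for Dkk3, -0.97 to 4.08 for Itm2a, -3.97 to 1.30 for Rian and -0.19 to 4.08 for Igf1, lowest without CIMEF replicate 1 and highest without CIMEF replicate 2. It ran from -5.91 to 0.16 for Pcdh7 and from -3.95 to 0.29 for Igfbp5, with the same libraries left out. None of the 8 passed in the full set.

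The deviations of same-numbered libraries were nearly uncorrelated (0.057 between CIMEF and DMEF, 0.0014 between CIMEF and ESC and -0.024 between DMEF and ESC). With 2 libraries per line this cannot tell whether same-numbered libraries share a source. With the replicate block 3257 genes were higher and 3442 lower, and the sign changed for Dkk3 (-0.24) and Rian (-0.38), neither of which passed in either fit.

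Limits: there are 2 libraries per state, some genes passed although their replicates lay as far apart as the states (Cdh11 and Lama2), and depth leaves genes of a few counts undecided. Passage and embryo are not given per library and cannot be told apart from contact inhibition.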

Other observations

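The genes below were chosen after their values were seen. The Hox genes, which record the position of a cell along the body, differed by cluster. Of 8 Hoxb genes tested 0 were higher and 5 lower, and of 8 Hoxc genes 0 were higher and 4 lower, with median log2 differences of -2.83 and -2.79. These counts and medians rest largely on genes near the floor. Hoxb1 and Hoxc12 had 0 CPM in all 4 fibroblast libraries, and Hoxb13 reached only 0.0322 CPM. Hoxb2 and Hoxc10 had 0 CPM in both contact-inhibited libraries and under 1 CPM in the dividing ones. These clusters were low, and lowest in the contact-inhibited libraries: summed over the cluster, Hoxb stood at 1.64 and 0.174 CPM in the contact-inhibited libraries and 11.9 and 9.28 CPM in the dividing libraries, and Hoxc at 2.75 and 0.131 CPM against 11.2 and 8.41 CPM. The other clusters were expressed in both states. Hoxd summed to 483 and 504 CPM against 508 and 469 CPM, with 4 of 6 genes higher and 0 lower, and Hoxa to 255 and 295 CPM against 201 and 203 CPM, with 4 of 11 higher and 1 lower.

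The Y-linked genes Ddx3y, Eif2s3y, Kdm5d and Uty were all higher in contact-inhibited fibroblasts. Ddx3y stood at 189.8 and 137 CPM against 81.4 and 49.8 CPM (log2 difference 1.31, SE 0.26, adjusted p = 0.00865), Kdm5d at 77.0 and 40.6 CPM against 27.7 and 22.1 CPM, Uty at 57.1 and 40.4 CPM against 24.3 and 19.9 CPM, and Eif2s3y at 86.7 and 49.9 CPM against 42.5 and 23.8 CPM (adjusted p = 0.0486). Xist, transcribed from the inactive X chromosome of female cells, passed as higher too, but was under 1 CPM in all 4 libraries (0.929 and 0.609 CPM against 0 and 0.129 CPM, log2 difference 3.38, SE 0.87, adjusted p = 0.0214).

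Besides Malat1, the nuclear noncoding RNA Neat1, found in paraspeckles, was higher, at 265 and 267 CPM against 65.8 and 76.1 CPM (log2 difference 1.91, SE 0.14, adjusted p = 5.4e-04). Some imprinted genes separated the contact-inhibited libraries from each other. H19 stood at 631 and 40.3 CPM against 163 and 188 CPM in the dividing libraries, Dlk1 at 216 and 15.5 CPM against 55.2 and 67.1 CPM, Igf2 at 23.1 and 5.14 CPM against 4.28 and 3.03 CPM, and Mirg at 8.96 and 0.261 CPM against 2.48 and 2.22 CPM. None of these 4 passed.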
